A study of Mus musculus with 36 samples.

Results

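Genes by which Kupffer cells, the resident macrophages of the liver, are recognised were measured in liver RNA of 36 mice. The set was fixed by gene symbol as Clec4f, Vsig4, Timd4, Cd5l, Marco, Adgre1, Cd163, Csf1r and Id3, and all 9 were found among the 24421 genes counted in every library. Each mouse gave 1 liver library. All mice were male C57BL/6J animals bought at 7 weeks of age, and all had first been fed a CDAHFD for 12 weeks, a high-fat diet of defined amino acids that lacks choline and causes steatohepatitis. In the first experiment, a high-fat diet (HFD) followed for 2 weeks with a weekly subcutaneous injection of 4.3 mg/kg Fc (Fc group, 10 mice) or 5 mg/kg Fc(mML1)B3 (10 mice). In the second experiment, a standard diet followed for 10 days with the same proteins and doses given on days 1, 4 and 7 to 9 and 7 mice. Fc(mML1)B3 is a human IgG1 Fc carrying a macrocyclic peptide in a loop, which activates mouse Met, the receptor of hepatocyte growth factor, and Fc is the same fragment without the peptide. No liver of a mouse that was never given the CDAHFD was analysed here, so each comparison is within livers recovering from that diet.

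Kupffer cells line the sinusoids, where they capture bacteria, complement-coated particles, dying cells and aged blood cells. They are seeded before birth and depend on signals from neighbouring endothelial, stellate and parenchymal cells, among them CSF1 and bone morphogenetic proteins (BMPs). In steatohepatitis part of the resident population is known to be lost and replaced by macrophages derived from monocytes, which share Adgre1 and Csf1r but gain the resident markers late or, for Timd4, hardly at all.

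The capture receptors of the set were Clec4f, a C-type lectin restricted to Kupffer cells, Vsig4, the complement receptor CRIg, Timd4, a phosphatidylserine receptor of long-lived resident macrophages, Marco, a class A scavenger receptor, and Cd163, the receptor of haemoglobin-haptoglobin complexes. Cd5l encodes a secreted protein that circulates with IgM. Adgre1 encodes F4/80 and Csf1r the receptor of CSF1 and IL34, both of which are general to macrophages. Id3 encodes an inhibitor of helix-loop-helix transcription factors that Kupffer cells need to develop and that other liver cells also express. In mm10, the longest exon model was that of Cd163 (4492 bases in 17 exon blocks on chromosome 6, 124304651 to 124330527, plus strand) and the shortest that of Id3 (953 bases in 3 blocks on chromosome 4, 136143822 to 136145392, plus strand). Marco lay on chromosome 1 (120474538 to 120505084, minus strand, 17 blocks), Timd4 on chromosome 11 (46810799 to 46844333, plus strand, 9 blocks) and Adgre1 on chromosome 17 (57358686 to 57483529, plus strand, 22 blocks). No exon of a member overlapped an exon of another gene.

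The sequence before the gene start was found for 7 of the 9 members in RefSeq promoters of GRCm38.p6. The sequences are shown for the 3 genes whose levels moved together most closely from liver to liver (Clec4f, Vsig4 and Cd5l) and for Id3, which had low r with them over all livers and was the one member called with Fc(mML1)B3 under the HFD. Each is the 250 bases before the annotated start, 5′ to 3′ on the gene's strand, and capitals mark GAGGAAG, a core of sites bound by the macrophage factor PU.1, or its reverse complement CTTCCTC.
Clec4f, chr6:83656117-83656366, minus strand: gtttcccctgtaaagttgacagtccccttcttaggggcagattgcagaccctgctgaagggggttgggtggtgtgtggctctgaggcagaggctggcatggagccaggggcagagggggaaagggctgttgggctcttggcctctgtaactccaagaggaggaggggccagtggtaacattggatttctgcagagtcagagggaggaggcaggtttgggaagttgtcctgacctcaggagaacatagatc
Vsig4, chrX:96293439-96293688, minus strand: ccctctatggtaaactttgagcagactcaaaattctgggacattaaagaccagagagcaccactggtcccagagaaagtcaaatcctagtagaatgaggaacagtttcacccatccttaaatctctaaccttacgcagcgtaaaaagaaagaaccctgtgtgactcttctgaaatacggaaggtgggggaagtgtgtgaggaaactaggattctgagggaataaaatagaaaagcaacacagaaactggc
Cd5l, chr3:87357631-87357880, plus strand: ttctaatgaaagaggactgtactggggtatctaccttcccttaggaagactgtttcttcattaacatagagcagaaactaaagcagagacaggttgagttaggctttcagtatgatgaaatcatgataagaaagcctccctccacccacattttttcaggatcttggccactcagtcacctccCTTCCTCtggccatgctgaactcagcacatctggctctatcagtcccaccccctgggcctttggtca
Id3, chr4:136143572-136143821, plus strand: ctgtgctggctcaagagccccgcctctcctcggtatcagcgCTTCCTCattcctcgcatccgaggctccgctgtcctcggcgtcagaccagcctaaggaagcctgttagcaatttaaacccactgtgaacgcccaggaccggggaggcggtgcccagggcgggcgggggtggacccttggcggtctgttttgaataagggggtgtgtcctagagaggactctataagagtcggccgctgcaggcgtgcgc
The Id3 sequence stood apart in base composition, with 18 CpG dinucleotides and 62.8% G and C, against 0 CpG in Clec4f and Cd5l and 3 in Vsig4. Over all 32851 promoters, the median was 6 CpG and 52.4% G and C. The PU.1 letters occurred at position -67 of Cd5l and -209 of Id3, counted from the start, and also in Marco, thus in 3 of the 7 members against 13.6% of all promoters over the same length and 50 further bases. The DR4 repeat bound by LXR (0.0152% of promoters), the SMAD palindrome GTCTAGAC (0.213%), the E-box CACGTG (7.15%) and TATAAA (13.6%) were found in none of the 7. The motifs named here were searched on both strands, and no member held more than 1 match, so that none overlapped. A match describes letters in this window and not a bound site.

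Library totals were 14949035 to 28466853 counted reads, and within groups no pair of libraries agreed within sampling noise. The sample numbers in the alignment names stored with the counts formed 5 series. Series A held all Fc livers of the HFD, B and C held 4 and 6 Fc(mML1)B3 livers of the HFD, D held 5 Fc livers of the standard diet, and E held the other 4 together with all 7 Fc(mML1)B3 livers of that diet. Under the HFD, series and protein therefore cannot be told apart, and between the diets neither can experiment, dosing, duration and series. Nothing in the labels ties mice to cages or litters. In bulk liver RNA, fewer Kupffer cells and less of an RNA per cell cannot be told apart either.

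All members but Cd163 were read in every liver, and Cd163 was read in 35 of 36. Levels are given as CPM, read counts scaled to the TMM-adjusted library total. To compare genes, CPM were divided by exon length in kilobases. On that scale Cd5l stood first in the Fc group of the HFD with 62.5 ± 32.9 CPM per kb (SD, n = 10), ahead of Id3 with 56.9 ± 10.5. The ranges of these neighbours overlapped, whereas every liver had more Id3 per kb than any had Csf1r, the next gene, with 26.2 ± 5.15. Vsig4 (21.3), Clec4f (19.1), Adgre1 (12.9) and Marco (7.76) followed with ranges that overlapped from one to the next. Timd4 (0.678) and Cd163 (0.0945) were the lowest members per kb, and their ranges overlapped that of the neighbour above or below. In each group Cd5l, Id3, Csf1r, Vsig4 and Clec4f were the highest 5 members, followed by Adgre1 and then Marco. Id3 led the Fc(mML1)B3 group of the HFD with 89.4 CPM per kb against 56.8 for Cd5l, with ranges that overlapped.

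**Figure D1:**
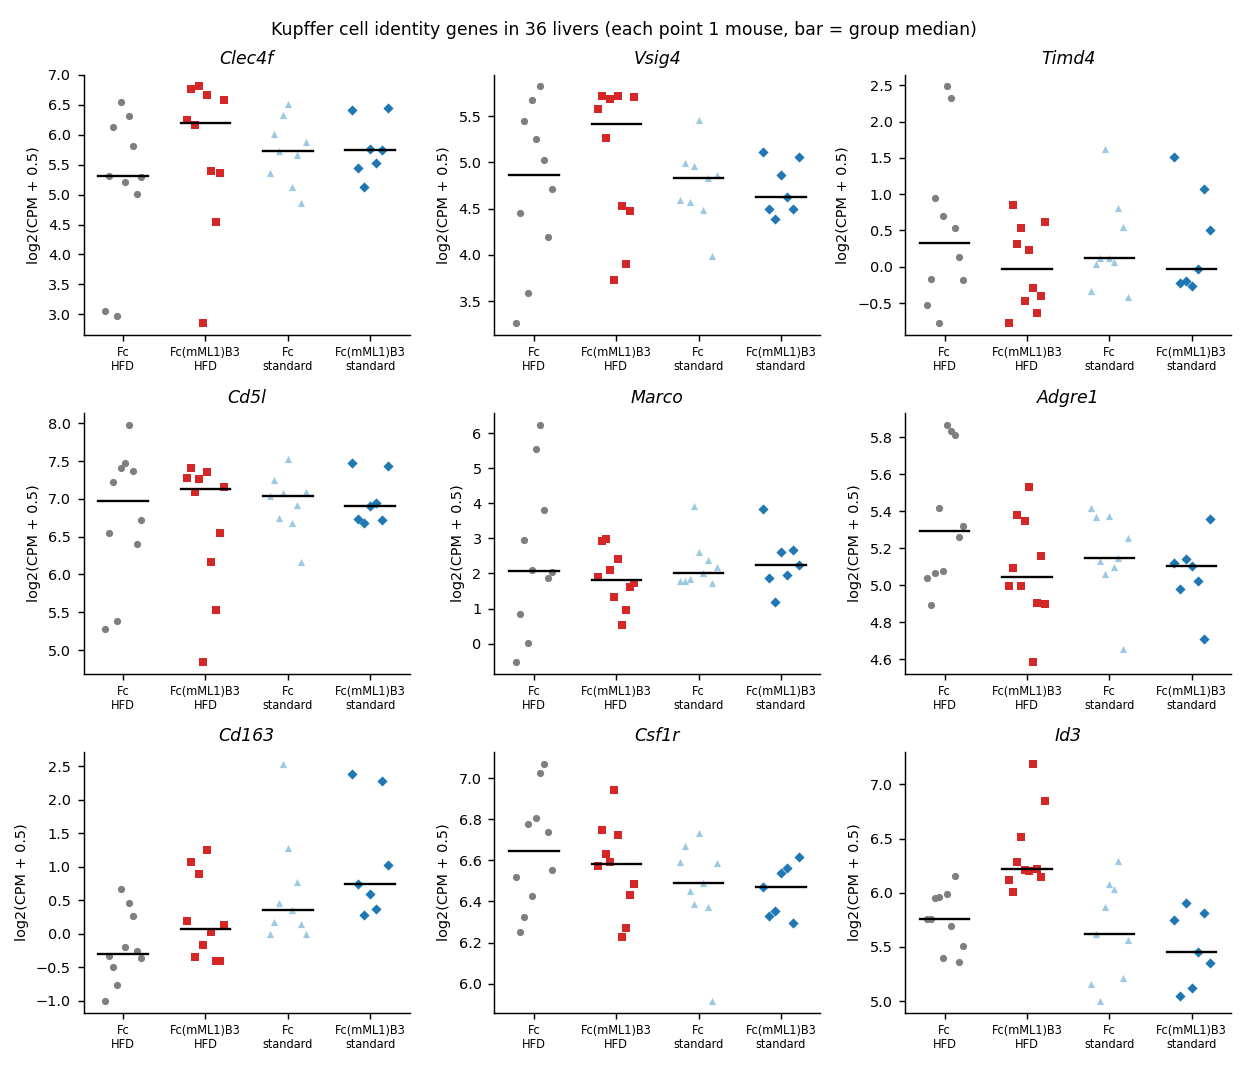
Levels of the 9 genes in each of the 36 livers, as log2(CPM + 0.5), with 1 panel per gene, 1 point per mouse and a bar at the group median. Id3 was higher in the Fc(mML1)B3 livers of the HFD (63.8 to 145 CPM) than the median of each other group, and single livers stand far from their group for Clec4f, Marco, Timd4 and Cd163.

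The first question was whether Fc(mML1)B3 changed these genes in livers recovering on the HFD. Id3 rose, and it was the only member called among the 8 tested by edgeR's quasi-likelihood test at a Benjamini-Hochberg adjusted p below 0.05 over all genes. Over all 13299 genes tested, 14.8% were called and 8.14% were higher, so that 1 of 8 is close to the background. At an unadjusted p below 0.05 in edgeR there were 4 of 8, where 29.8% of all genes passed. They were Id3, which was higher, and Marco, Timd4 and Adgre1, which were lower. The resident receptors Clec4f and Vsig4 and the secreted Cd5l were not called, and the groups overlapped in each of them. Marco and Timd4 had lower means with Fc(mML1)B3, which rested on 2 Fc mice.

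Id3 was 40.5, 53.7 and 70.9 CPM (lowest, median and highest) in the Fc livers and 63.8, 73.8 and 145 CPM in the Fc(mML1)B3 livers. Every treated mouse lay above the Fc median and 7 of 10 above every Fc mouse, with mice 7 (145 CPM) and 10 (115 CPM) highest. The means were 54.3 ± 10.0 and 85.2 ± 25.6 CPM (SD, n = 10 each), a log2 fold change (log2 FC) of 0.66 (standard error, SE, 0.14, 95% interval 0.37 to 0.95, edgeR's quasi-likelihood test, adjusted p = 0.00227). With the same 10 Fc livers it was also called for the 4 Fc(mML1)B3 livers of one number series alone (log2 FC 0.50, adjusted p = 0.0406) and for the 6 of the other (0.77, adjusted p = 0.00348), which are parts of the group already tested and share its Fc livers.

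**Figure D2:**
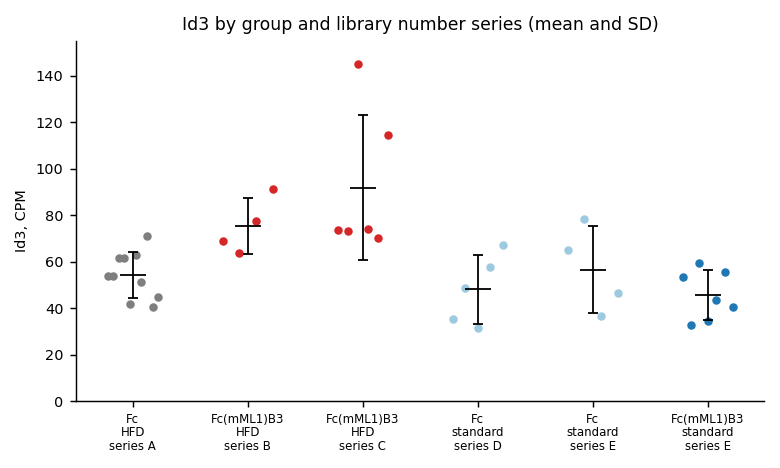
Id3 in CPM in each mouse, split by group and by library number series (letters A to E), with the mean and SD of each set. Under the HFD the Fc(mML1)B3 livers averaged 75.3 CPM in series B and 91.8 CPM in series C against 54.3 CPM for the Fc livers of series A, and under the standard diet the proteins overlapped within series E (56.6 CPM for Fc and 45.6 CPM for Fc(mML1)B3).

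The relatives and regulators of Id3 were described through 11 ID and BMP target genes. None of them was called under the HFD by edgeR's quasi-likelihood test or DESeq2, against 1 by limma-voom and 1 at an unadjusted p below 0.05, and their median log2 FC was 0.11, beside -0.01 over all genes tested. Id2, the closest of them to Id3 from liver to liver, had a log2 FC of 0.38 (SE 0.16, adjusted p = 0.101), and Hamp, the iron hormone induced by BMP signals, one of 0.56 (SE 0.32, adjusted p = 0.239). Clock output genes moved with the protein in the same livers. Nr1d1, a clock repressor, was 83.4 ± 42.7 CPM with Fc and 10.40 ± 5.71 CPM with Fc(mML1)B3 (log2 FC -2.97, adjusted p = 9.67e-07), and Dbp was 100.2 ± 20.5 and 9.88 ± 7.88 CPM (log2 FC -3.31, adjusted p = 5.38e-07). These clock genes were named after their values were seen. With group means removed, Id3 correlated with Nr1d1 at r = -0.52 and with Dbp at r = -0.39 over the 20 HFD livers, and at 0.03 and 0.46 over the 16 standard diet livers. The time of day of collection is not in the labels, and its part in the Id3 result was not tested.

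Clec4f was 7.34, 39.1 and 92.6 CPM in the Fc livers and 6.73, 73.0 and 112 CPM in the Fc(mML1)B3 livers of the HFD. Of the 10 treated livers, 4 lay above every Fc liver and 8 above the Fc median, while each group held livers with very little Clec4f. The log2 FC was 0.57 with an SE of 0.43 and an interval of -0.31 to 1.45 (adjusted p = 0.385), so that a rise of more than 2-fold or a slight fall would both lie inside it. Vsig4 was 9.10, 28.9 and 56.1 CPM with Fc and 12.8, 42.5 and 52.3 CPM with Fc(mML1)B3 (log2 FC 0.27, SE 0.32, adjusted p = 0.611). Cd5l was 38.1, 127 and 251 CPM with Fc and 28.2, 139.2 and 169 CPM with Fc(mML1)B3 (log2 FC -0.12, SE 0.33, adjusted p = 0.828). The 3 genes thus overlapped between the proteins, and the SEs reflect a spread of several-fold between mice of the same group.

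Marco was 0.198, 3.69 and 74.3 CPM in the Fc livers and 0.955, 3.03 and 7.34 CPM in the Fc(mML1)B3 livers. Fc mice 7 and 6 had 74.3 and 46.5 CPM, whereas the next Fc mouse had 13.4 CPM, and the medians of the groups were close. The log2 FC of -2.06 (SE 0.73) did not pass (edgeR's quasi-likelihood test, adjusted p = 0.0602). DESeq2 called it (-2.08, adjusted p = 0.0367), as did one fit of all 4 groups (adjusted p = 0.0154) and fits without Fc mouse 1 (adjusted p = 0.0376), 2 (0.0482) or 4 (0.0404). Without Fc mice 6 and 7, a setting chosen after the data were seen, it was -0.16 (SE 0.53, adjusted p = 0.88), and limma-voom with sample weights gave -0.14 (adjusted p = 0.913). Timd4 was high in the same mice. It was 0.0869, 0.771 and 5.10 CPM with Fc, the highest 2 values being 5.10 in mouse 6 and 4.50 in mouse 7, and 0.0851, 0.497 and 1.31 CPM with Fc(mML1)B3. Its log2 FC of -1.34 (SE 0.61, adjusted p = 0.141) became -0.17 (adjusted p = 0.857) without these mice.

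Neutrophil markers differed in these livers too. Over the 5 tested of 6 neutrophil markers, 3 were lower with Fc(mML1)B3 by edgeR, where 6.68% of all genes were lower. DESeq2 called 3 and limma-voom 1, where these tools called 17.2% and 22.9% of all genes. The sum of the list was 14.2, 18.8 and 68.0 CPM (lowest, median and highest) in the Fc livers and 12.0, 15.1 and 21.4 CPM in the treated livers. Fc mouse 7 had the highest sums of neutrophil (68.0 CPM), general macrophage and leukocyte (2342 CPM) and monocyte (178 CPM) markers of its group, and Fc mouse 6 had 23.6, 1965 and 100.3 CPM. Mmp8 was at 0 reads in at least 1 library and every other neutrophil marker in the files was read throughout. Their part in the Marco and Timd4 values was not tested.

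The general macrophage genes were lower in mean and were not called. Adgre1 was 29.3, 38.7 and 57.8 CPM with Fc and 23.5, 32.5 and 45.7 CPM with Fc(mML1)B3 (log2 FC -0.28, SE 0.13, adjusted p = 0.167). Csf1r was 75.6, 99.98 and 133.8 CPM and 74.3, 95.2 and 123 CPM (log2 FC -0.08, SE 0.11, adjusted p = 0.63). Both genes overlapped between the groups over most of their range. Cd163, with 0 to 29 reads in the Fc livers and at least 4 in the treated ones, fell below the filter on low counts. With a filter of 0.5 CPM in 1 library it had a log2 FC of 0.88 (SE 0.50, adjusted p = 0.265).

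**Figure D3:**
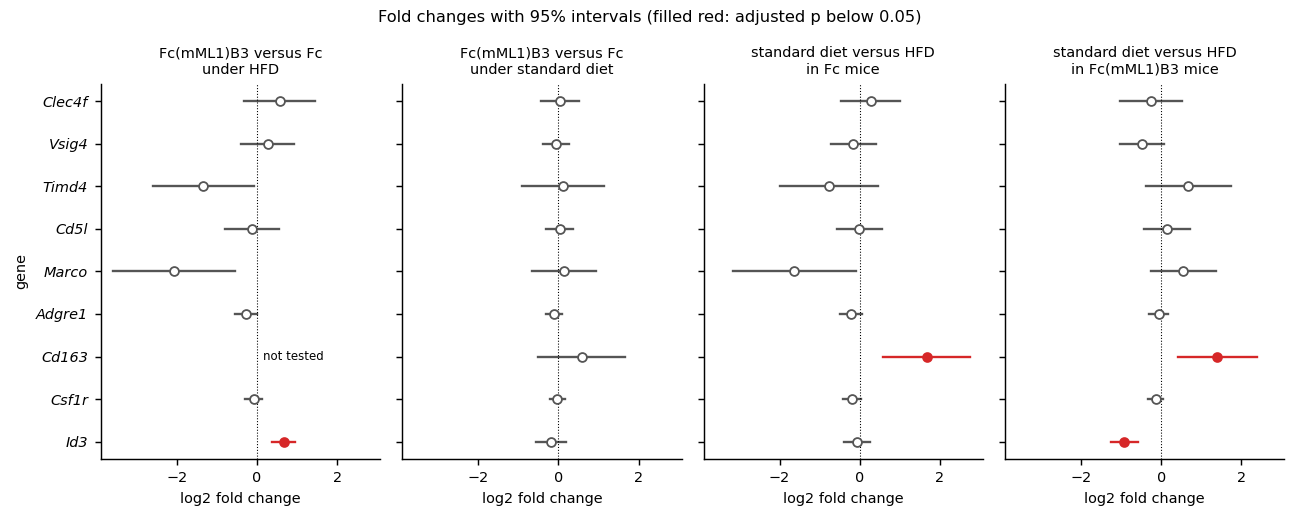
Log2 fold changes of the 9 genes in the 4 comparisons of groups, with 95% intervals from edgeR's quasi-likelihood fit, filled where the adjusted p was below 0.05. Id3 (0.66 under the HFD and -0.92 between diets with Fc(mML1)B3) and Cd163 (1.66 and 1.40 between diets) were called, and the widest intervals are those of Marco and Timd4 in comparisons that include the Fc livers of the HFD.

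The wider Kupffer cell program was described with lists of genes. Of the 13299 genes tested under the HFD, edgeR called 14.8%, DESeq2 17.2% and limma-voom 22.9%, and 29.8% had an unadjusted p below 0.05 in edgeR. Of 15 other Kupffer cell genes, none was called under the HFD by edgeR, DESeq2 or limma-voom, with 1 at an unadjusted p below 0.05 in edgeR, and their median log2 FC was -0.01. The complement genes C1qa (-0.34, SE 0.15, adjusted p = 0.137), C1qb (-0.30, adjusted p = 0.193) and C1qc (-0.25, adjusted p = 0.253) had the smallest p of the list. Of 10 transcription factors of Kupffer cells none was called by edgeR (3 at an unadjusted p below 0.05) and 2 each by DESeq2 and limma-voom, with Irf8, a factor of the macrophage lineage, nearest (-0.37, SE 0.13, adjusted p = 0.0511), followed by Nr1h3, which encodes LXR alpha (0.22, adjusted p = 0.0748). None of 7 ligands and signalling partners of the CSF1 receptor was called by edgeR (3 at an unadjusted p below 0.05) or DESeq2, and 1 by limma-voom. Csf1 itself had a log2 FC of -0.26 (adjusted p = 0.118) and Il34, the other ligand, 0.38 (adjusted p = 0.128). None of 14 clearance and scavenger receptor genes was called by edgeR (2 at an unadjusted p below 0.05) or DESeq2, and 1 by limma-voom, with Scarb1 at 0.16 (adjusted p = 0.147) and the integrin subunit gene Itgb2 at -0.30 (adjusted p = 0.16).

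The second question was the same under the standard diet. None of the 9 members was called by edgeR's quasi-likelihood test, DESeq2 or limma-voom, where the first called 16.1% of 13570 genes (8.56% higher), and none had an unadjusted p below 0.05, where 29.3% did. The log2 FCs ranged from -0.19 for Id3 to 0.58 for Cd163. Clec4f was 28.6, 52.8 and 91.4 CPM with Fc and 34.4, 53.0 and 86.7 CPM with Fc(mML1)B3, a log2 FC of 0.04 (SE 0.22, adjusted p = 0.93). Vsig4 had a log2 FC of -0.06 (SE 0.16), Cd5l one of 0.03 (SE 0.16), Adgre1 one of -0.11 (SE 0.10) and Csf1r one of -0.03 (SE 0.09). For all 5 genes the treated range lay within the Fc range.

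Id3 was 31.6, 48.7 and 78.2 CPM in the Fc livers and 32.6, 43.3 and 59.5 CPM in the Fc(mML1)B3 livers of the standard diet. The treated livers lay inside the range of the Fc livers. Its log2 FC was -0.19 (SE 0.18, interval -0.56 to 0.18, adjusted p = 0.511), and within the number series that held both proteins it was -0.31 (adjusted p = 0.362). The difference between the effects of Fc(mML1)B3 in the diets was tested by an interaction term over all 36 livers. Id3 was the only member called of 9, against 9.06% of 14105 genes, with an interaction of -0.84 on the log2 scale (SE 0.24, interval -1.31 to -0.36, edgeR's quasi-likelihood test, adjusted p = 0.0178). Marco (2.21, adjusted p = 0.14) and Timd4 (1.47, adjusted p = 0.323) had larger interactions with larger errors. Among the ID and BMP genes, Atoh8, a BMP target of hepatocytes, was lower with Fc(mML1)B3 under the standard diet (-0.64, SE 0.15, adjusted p = 0.00618) and was called in the interaction (-0.86, adjusted p = 0.0132). It was the one called of 11 in each, near the background of 7.55% lower under the standard diet and 9.06% in the interaction.

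The low-count receptors varied with single livers under the standard diet. Marco was 2.82, 3.53 and 14.5 CPM with Fc and 1.80, 4.19 and 13.8 CPM with Fc(mML1)B3 (log2 FC 0.14, SE 0.38, adjusted p = 0.85). Timd4 was 0.246, 0.583 and 2.58 CPM and 0.335, 0.477 and 2.36 CPM (log2 FC 0.12, SE 0.49, adjusted p = 0.904). Cd163 was 0.493, 0.784 and 5.30 CPM and 0.712, 1.17 and 4.72 CPM (log2 FC 0.58, SE 0.52, adjusted p = 0.489). Leaving out 1 library moved this log2 FC from 0.23 to 1.21 (edgeR's quasi-likelihood test, adjusted p 0.069 to 0.82). Within the number series that held both proteins, Cd163 averaged 0.773 ± 0.315 CPM with Fc (SD, n = 4) and 2.04 ± 1.73 CPM with Fc(mML1)B3 (n = 7). In each group the highest value of all 3 genes came from one mouse, Fc mouse 4 and Fc(mML1)B3 mouse 1.

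Of the wider lists under the standard diet, 0 of 15 other Kupffer cell genes was called by any of the 3 tools or passed an unadjusted p below 0.05 (median log2 FC 0.01). None of 7 genes around the CSF1 receptor was called by the 3 tools, with 1 at an unadjusted p below 0.05 in edgeR. Zeb2, a factor that maintains macrophage identity, was lower (-0.26, SE 0.08, adjusted p = 0.0291) and was the one called of 10 transcription factors. Scarb1, a lipoprotein receptor also made by hepatocytes, was lower (-0.21, SE 0.07, adjusted p = 0.0318) and was the one called of 14 clearance genes. Over all genes 16.1% were called and 7.55% were lower, so that 1 of 10 and 1 of 14 are near the background.

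The diets were then compared within each protein, a comparison of experiments as much as of diets. In the Fc mice, 49% of 13506 genes were called and 1 of 9 members, Cd163, which was higher under the standard diet. In the Fc(mML1)B3 mice, 38.2% of 13627 genes were called and 2 of 9 members, Cd163, which was higher, and Id3, which was lower. Clec4f, Vsig4, Cd5l and Csf1r were not called in either comparison.

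Cd163 was 0, 0.314 and 1.09 CPM in the Fc livers of the HFD and 0.493, 0.784 and 5.30 CPM in those of the standard diet. Every standard diet mouse lay above the HFD median and 3 of 9 above every HFD mouse. The means were 0.424 ± 0.351 (SD, n = 10) and 1.37 ± 1.54 CPM (n = 9), a log2 FC of 1.66 (SE 0.53, edgeR's quasi-likelihood test, adjusted p = 0.0123). Without standard diet Fc mouse 4 it was 1.05 (adjusted p = 0.0602), and with the 4 standard diet Fc livers that shared a number series with the treated ones it was 0.87 (adjusted p = 0.26), neither of which passed. Cd163 averaged 0.773 ± 0.315 CPM in these 4 livers and 1.85 ± 2.01 CPM in the 5 of the other series, which include mouse 4. With Fc(mML1)B3, Cd163 was 0.251, 0.555 and 1.89 CPM under the HFD and 0.712, 1.17 and 4.72 CPM under the standard diet, where 2 of 7 mice lay above every HFD mouse. The log2 FC was 1.40 (SE 0.47, adjusted p = 0.0243), and it was no longer called without treated mouse 1 (1.04, adjusted p = 0.0942) or 6 (1.09, adjusted p = 0.084), nor by limma-voom (1.18, adjusted p = 0.0565).

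The 3 livers with the most Cd163 also had high sums of 7 sinusoidal endothelial markers. These sums were 304 CPM in standard diet Fc mouse 4, the highest of 9, and 313 and 298 CPM in Fc(mML1)B3 mice 1 and 6, the highest 2 of 7. The ranges of the sum overlapped between diets, at 246 to 292 CPM against 249.4 to 304 CPM in the Fc mice and 230 to 362 CPM against 250.5 to 313 CPM in the Fc(mML1)B3 mice. Between the diets, 1 of the 7 markers was higher and 1 lower in the Fc mice, while in the Fc(mML1)B3 mice 1 was higher and 2 were lower, where 49% and 38.2% of all genes were called. Every marker of the list was read in every library, and the part of these cells in the Cd163 values was not tested.

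Id3 fell from 85.2 ± 25.6 CPM (SD, n = 10) in the HFD livers to 45.6 ± 10.7 CPM (n = 7) in the standard diet livers of Fc(mML1)B3 mice. All 7 standard diet mice lay below all HFD mice. The log2 FC was -0.92 (SE 0.17, edgeR's quasi-likelihood test, adjusted p = 0.000198). In the Fc mice Id3 was 54.3 ± 10.0 and 51.8 ± 16.2 CPM with a log2 FC of -0.07 (SE 0.15, adjusted p = 0.739). These comparisons share their groups with those between the proteins and do not add independent evidence. Of the 11 ID and BMP genes, 8 were lower under the standard diet in the Fc(mML1)B3 mice and 3 in the Fc mice, and none was higher, where 19.1% and 25.2% of all genes were lower. They included Hamp (-1.08, SE 0.23, adjusted p = 0.000864), Atoh8 (-0.80, adjusted p = 0.0011) and Gdf2, a BMP ligand (-0.42, adjusted p = 0.00335), in the Fc(mML1)B3 mice.

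Marco and Timd4 had lower means under the standard diet in the Fc mice, with log2 FCs of -1.63 (SE 0.74, adjusted p = 0.073) and -0.77 (SE 0.59, adjusted p = 0.29). Without HFD Fc mice 6 and 7 the signs turned, to 0.27 for Marco (adjusted p = 0.698) and 0.38 for Timd4 (adjusted p = 0.54). Marco was called without HFD Fc mouse 1 (-1.78, adjusted p = 0.0393), HFD Fc mouse 4 (-1.78, adjusted p = 0.0448) or standard diet Fc mouse 4 (-2.01, adjusted p = 0.0395). Vsig4 had a log2 FC of -0.49 in the Fc(mML1)B3 mice (SE 0.26, adjusted p = 0.151) and was called without HFD treated mouse 5 (-0.58, adjusted p = 0.0487). Clec4f had log2 FCs of 0.28 (SE 0.35) with Fc and -0.25 (SE 0.37) with Fc(mML1)B3.

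With the limits set at 0.1 for the adjusted p and 2 for the fold, Marco was called under the HFD (1.34% of all genes), 0 of 9 members under the standard diet (0.604%), Marco and Cd163 between the diets in the Fc mice (4.41%), Cd163 alone in the Fc(mML1)B3 mice (3.49%) and 0 in the interaction (1.92%).

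The wider lists were also compared between the diets. In the Fc mice 25.2% of all genes were lower under the standard diet and 23.9% higher, and in the Fc(mML1)B3 mice 19.1% were lower and 19.1% higher. Of 15 other Kupffer cell genes, 5 were lower and none higher in the Fc mice, which for the lower genes is near the background, and the same counts were found in the Fc(mML1)B3 mice. C1qa (-0.61, SE 0.14, adjusted p = 0.00161) and the phagosomal metal transporter gene Slc11a1 (-0.52, adjusted p = 0.0103) were among them in the Fc mice, and Hmox1, which encodes heme oxygenase 1 (-0.47, adjusted p = 0.00271), in the Fc(mML1)B3 mice. Of 10 transcription factors, 3 were lower in the Fc mice and 1 was higher, led by Irf8 (-0.75, adjusted p = 4.66e-05), and in the Fc(mML1)B3 mice 5 fell and 2 rose. Spi1, the gene of PU.1, was lower in both (-0.65 and -0.56). Of 7 genes around the CSF1 receptor, 5 were lower in the Fc mice and 3 in the Fc(mML1)B3 mice, and 1 was higher in each. Csf1 was lower in the Fc mice (-0.72, SE 0.09, adjusted p = 7.99e-07). Cbl, a ubiquitin ligase that acts on the activated receptor and on many others, was the one that was higher (2.66 and 2.29). Of 14 clearance genes, 5 were lower in each comparison, among them the TAM receptor gene Axl (-0.45 and -0.38), and 2 and 1 were higher, among them Lrp1 (0.43 and 0.39).

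How the members varied from liver to liver was described by correlations of log2(CPM + 0.5) over the 36 libraries with the group means removed. Points share tissue piece, library depth and cell makeup, so the values are descriptions. Of 36 pairs, 17 had r above 0.5, the median was 0.41 and the range was -0.06 to 0.96. Clec4f, Vsig4 and Cd5l moved together, with r = 0.94 for Clec4f and Vsig4, 0.94 for Clec4f and Cd5l and 0.96 for Vsig4 and Cd5l, and 0.94, 0.92 and 0.96 without the 2 livers farthest from the median of the first gene. Timd4 and Marco formed another pair, at 0.85, or 0.76 without Fc mice 6 and 7 of the HFD. Adgre1 and Csf1r formed a further pair, at 0.86 both ways. The sets were not separate, since Marco had r = 0.73 with Cd5l, 0.70 with Vsig4 and 0.55 with Adgre1. Clec4f had r = 0.15 with Adgre1 and 0.08 with Csf1r over all livers, with 0.07 and -0.04 over the HFD livers and 0.51 and 0.60 over the standard diet livers. Over the standard diet livers r was 0.82 for Cd5l and Csf1r and 0.89 for Marco and Cd163. Id3 had r of -0.06 to 0.24 with the other members over all livers, and values within single groups lay farther apart. Within the 10 Fc(mML1)B3 livers of the HFD it had r = -0.67 with Adgre1, -0.54 with Csf1r and -0.53 with Marco. Mouse 7 of that group had the most Id3 and the least Adgre1, Csf1r and Marco. Within the 10 Fc livers of the HFD the same pairs had r = 0.43, 0.31 and 0.21. Within the 9 Fc livers of the standard diet Id3 had r = 0.55 with Vsig4.

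**Figure D4:**
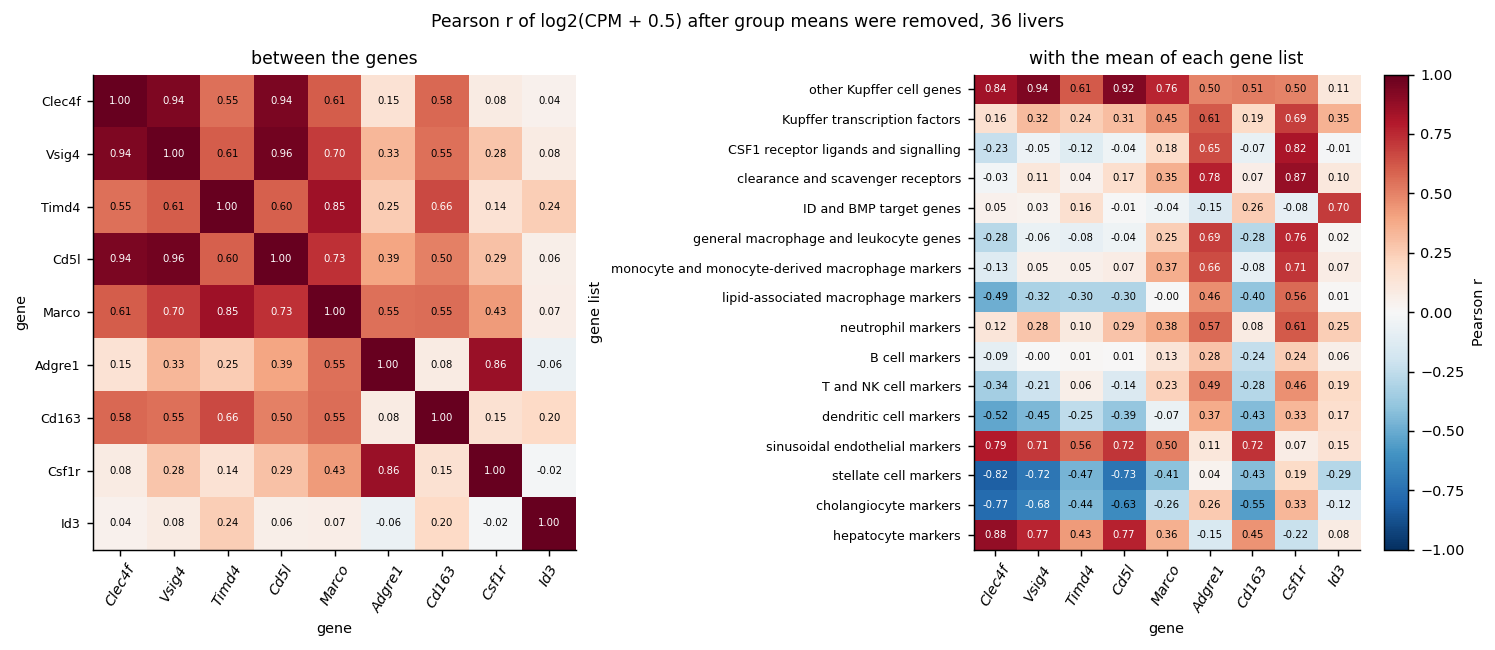
Pearson r of log2(CPM + 0.5) with group means removed over 36 livers, between the 9 genes (left) and of each gene with the mean of each gene list without that gene (right), from blue (-1) to red (1). Clec4f, Vsig4 and Cd5l form one block (0.94 to 0.96) and Adgre1 and Csf1r another (0.86), and Id3 is pale against all members and reddest with the ID and BMP genes (0.70).

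The genes most like each member were named as the 3 non-members with the highest r. Folr2, a folate receptor of resident macrophages, was the closest gene to Clec4f (0.95), Vsig4 (0.94) and Cd5l (0.95). Clec1b and Cfp, the gene of the complement protein properdin, followed for Vsig4 (0.94 and 0.92) and Cd5l (0.92 and 0.92), and Sfxn1 and Cyp2f2 for Clec4f (0.90 each). Kcna2 and Cd300e were near both Timd4 (0.76 and 0.73) and Marco (0.81 and 0.82), joined by Siglece for Timd4 (0.73) and Trpm2 for Marco (0.81). Hcls1, a haematopoietic signalling gene, was the closest to Adgre1 (0.85) and Csf1r (0.90), with Syk (0.81) and Mpeg1 (0.78) for the former and Adgre5 and Vav1 (0.87 each) for the latter. Cd163 was nearest to Adcy4 (0.79), Kcnj16 (0.73) and Cdh5, the vascular cadherin gene (0.70), and Id3 to Id2 (0.65) and Phf23 (0.61).

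The members were also set against gene lists. With the mean of the 15 other Kupffer cell genes, r was 0.94 for Vsig4, 0.92 for Cd5l, 0.84 for Clec4f, 0.76 for Marco, 0.61 for Timd4, 0.50 for Adgre1, 0.50 for Csf1r and 0.11 for Id3. With the 12 general macrophage and leukocyte genes, r was 0.69 for Adgre1 and 0.76 for Csf1r, but -0.28 for Clec4f. Csf1r was closest to the 14 clearance genes (0.87) and the 7 genes around its own signalling (0.82). Cd163 had r = 0.72 with the 7 sinusoidal endothelial markers and 0.51 with the other Kupffer cell genes. With the endothelial markers r was also 0.79 for Clec4f, 0.72 for Cd5l, 0.71 for Vsig4, 0.56 for Timd4 and 0.50 for Marco. It was 0.15 for Id3, 0.11 for Adgre1 and 0.07 for Csf1r. Id3 had r = 0.35 with the 10 Kupffer cell transcription factors and 0.70 with the 11 ID and BMP genes. Its level is that of Id3 in whole liver.

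The livers with very little Clec4f were described one by one. Fc mice 4 and 1 of the HFD had 7.34 and 7.76 CPM, and Fc(mML1)B3 mice 5 and 8 had 6.73 and 22.8 CPM. Fc mouse 1 was the lowest of its group in 4 of 9 members and below the median in all 9. Fc(mML1)B3 mouse 5 was the lowest of its group for Clec4f, Vsig4 and Cd5l, yet the highest for Csf1r (123 CPM) and for the sum of general macrophage and leukocyte genes (2159 CPM). In these 4 livers the sums of 7 stellate markers were the highest 2 of each group (1101 and 1031 CPM with Fc, 1223 and 798 CPM with Fc(mML1)B3), as were those of 5 cholangiocyte markers (97.8 and 89.4 CPM, 169 and 91.9 CPM). The sum of 7 hepatocyte markers was the lowest of its group in Fc mouse 4 (80736 CPM) and Fc(mML1)B3 mouse 5 (75139 CPM). Over all livers, Clec4f had r = -0.82 with the stellate list, -0.77 with the cholangiocyte list, 0.79 with the endothelial list and 0.88 with the hepatocyte list. In the same order r was -0.72, -0.68, 0.71 and 0.77 for Vsig4 and -0.73, -0.63, 0.72 and 0.77 for Cd5l. The part of tissue composition in the values of Clec4f, Vsig4 and Cd5l was not tested.

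**Figure D5:**
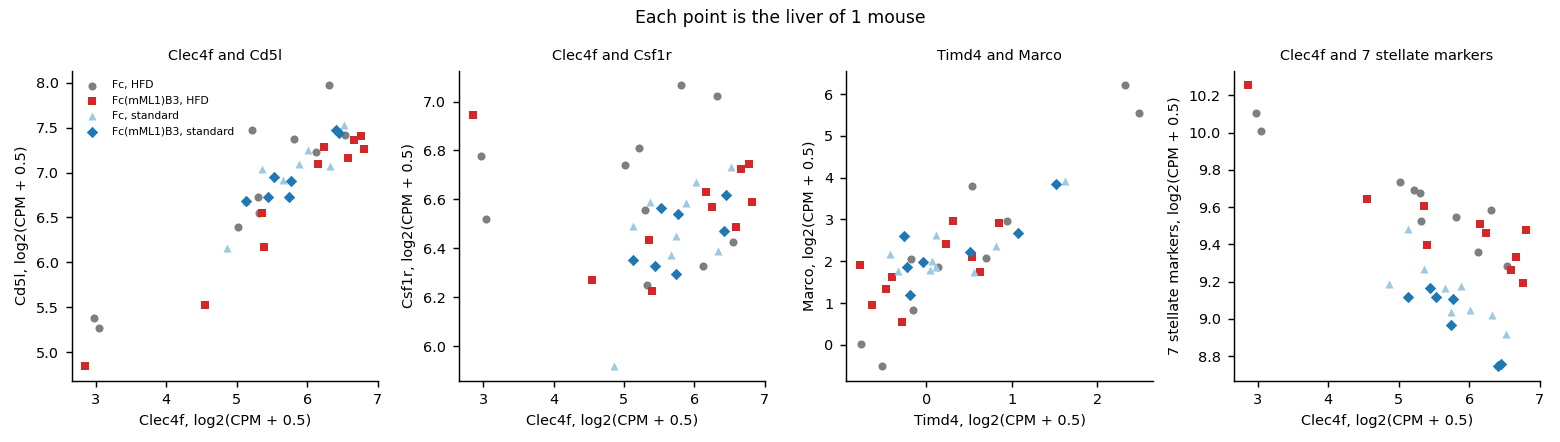
Pairs of levels as log2(CPM + 0.5), each point 1 liver and each shape 1 group, with Clec4f against Cd5l, against Csf1r and against the sum of 7 stellate markers, and Timd4 against Marco. Clec4f and Cd5l lie along one line, the livers lowest in Clec4f (6.73 to 7.76 CPM) keep Csf1r within the range of the others and have the highest stellate sums (1031 to 1223 CPM), and 2 Fc livers of the HFD lie far out in Timd4 and Marco.

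The spread between mice of a group was itself unlike between members. The coefficient of variation of Clec4f was 61.9% and 55.7% in the Fc and Fc(mML1)B3 livers of the HFD and 36.9% and 35.8% in those of the standard diet. For Csf1r it was 19.7% and 15.3% under the HFD and 15.2% and 8.85% under the standard diet. The widest spread of any member in any group was that of Marco in the Fc livers of the HFD, at 162%. In each other group Cd163 and Timd4 had a wider spread than Marco. The sum of all 9 members overlapped between the groups, at 233 to 704 CPM with Fc and 265 to 548 CPM with Fc(mML1)B3 under the HFD, and at 241 to 542 CPM and 319 to 493.01 CPM under the standard diet.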

How the data were processed

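Liver RNA was prepared as directional libraries and sequenced in pairs. The authors trimmed reads with fastp, removed ribosomal reads with Bowtie2 2.4.5, aligned to mm10 with STAR 2.7.10a and counted with featureCounts (Subread 2.0.3), as the submitters' processing notes, the study's methods and the file headers give it. The deposited values are raw counts per gene, 1 column per mouse, counted for pairs with both ends aligned, without strand and without reads aligned to several places, so antisense reads would be included. Groups came from the sample titles.

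From these counts, edgeR 4.0.16 in R 4.3.3 was run with TMM scaling, filterByExpr and the quasi-likelihood F-test in each pair of groups, with an interaction term over all 36 libraries. P-values were adjusted by Benjamini-Hochberg over all genes tested and called below 0.05. The study's own test, DESeq2 (1.42.0), was an alternative, beside limma-voom (limma 3.58.1), other scalings, filters and thresholds, number series, and leaving out each library. The fits were tested on simulated data. Low counts carry counting error on top of the spread between mice.

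The members, the 16 gene lists and the tests were chosen with earlier results of these data known. Named genes were the 9 members, up to 4 genes per list with the smallest p in a comparison, and the 3 genes most like each member by Pearson r. Some genes that this rule names are not reported here. Each correlation used log2(CPM + 0.5). Promoter sequences came from RefSeq (GRCm38.p6). Adgre1 and Csf1r had no entry.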

Additional observations from a re-analysis of the deposited data

Results flagged for a closer look

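In 2 livers of the standard diet, 1 value stood apart from the rest of its group for one or more of the low-count receptors. In Fc mouse 4, Timd4 was 2.58 CPM where the next mouse had 1.25, Marco was 14.5 CPM where the next had 5.63, and Cd163 was 5.3 CPM where the next had 1.94. In Fc(mML1)B3 mouse 1, Marco was 13.8 CPM and the next mouse had 5.88. For each, the gap to the nearest mouse was a larger share of the group's range than Dixon's 95% limit. Over the 36 combinations of gene and group examined, 4 met this limit. Chance alone flags about 1 in 20 where values are normally distributed. These were CPM without a log scale, with coefficients of variation of 73.5% to 112% in the flagged combinations, so that rate may not hold here. The genes vary together from liver to liver, so the 4 are not independent.

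The effect of Fc(mML1)B3 on Id3 differed between the diets, with an interaction of -0.84 on the log2 scale (edgeR's quasi-likelihood test, adjusted p = 0.0178). Diet cannot be told apart from experiment, dosing, duration and number series in this difference.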

How the results depend on the processing

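The Id3 result under the HFD kept its direction and its call in every alternative except the threshold of a fold change above 2, which its fold of 1.58 missed, and its log2 fold change was 0.54 to 0.71 (adjusted p 0.00139 to 0.00493) when each library was left out. DESeq2 and one fit of all 4 groups called 2 members there, adding Marco. Between the diets in the Fc mice, 2 members were called with upper-quartile scaling (Cd163 and Csf1r), 2 at the limits of 0.1 for adjusted p and 2 for fold and 2 in one fit of 4 groups (both Marco and Cd163), and 0 with the 4 standard diet livers of the second number series. In the Fc(mML1)B3 mice, 1 was called with limma-voom (Id3) and 1 at the fold above 2 (Cd163), and the interaction then had 0. Leaving out 1 library gave 1 to 2 members called under the HFD, 1 to 2 between diets in Fc mice and 1 to 3 in Fc(mML1)B3 mice.

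None of the values that turned sign was called with its turned sign, and of them Marco between diets in Fc mice was called, lower, in other fits. With limma-voom they were Cd5l under the HFD (0.11), Clec4f (-0.013) and Timd4 (-0.043) under the standard diet, Vsig4 (0.098), Cd5l (0.22) and Marco (0.26) between diets in Fc mice, and the Cd5l interaction (-0.0903). In subsets by number series they were Cd5l (0.30) with 4 and Vsig4 (-0.063) with 6 treated HFD livers, Vsig4 (0.16), Adgre1 (0.015) and Csf1r (0.091) under the standard diet, and in Fc mice between diets Vsig4 (0.014), Cd5l (0.17), Clec4f (-0.086) and Id3 (0.073). The 0.5 CPM filter gave Cd5l 0.0066 there. Without HFD Fc mice 6 and 7, chosen after the data were seen, Cd5l was 0.15 under the HFD and, between diets, Vsig4 0.0504, Cd5l 0.26, Timd4 0.38 and Marco 0.27. Leaving out 1 library moved Cd5l from -0.23 to 0.045 under the HFD, Clec4f from -0.088 to 0.16, Vsig4 from -0.14 to 0.052, Timd4 from -0.32 to 0.53, Cd5l from -0.061 to 0.12, Marco from -0.30 to 0.53 and Csf1r from -0.089 to 0.0055 under the standard diet, and Cd5l from -0.12 to 0.16 and Id3 from -0.16 to 0.015 between diets in Fc mice. Of the single-gene values, 1044 kept direction and side, 53 turned sign, 13 gained and 9 lost a call.

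Mice of the same title number did not deviate together, with r above 0.1 in 2 of 10, 0 of 7, 0 of 9 and 3 of 7 pairs, so the numbers were not used as pairs. With the number as a replicate block, 1 member was called between diets in Fc(mML1)B3 mice (Id3, with Cd163 at 0.98, adjusted p = 0.0651). Under the standard diet the block gave Clec4f -0.052, Timd4 -0.017, Cd5l -0.052 and Marco -0.015, Cd5l between diets in Fc mice was 0.14, and Marco under the HFD moved to -0.61 (adjusted p = 0.668).

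Of the 3 genes most like each member, Spearman correlation shared 1 for Clec4f, Timd4 and Id3, the HFD livers alone 1 for Cd5l, Adgre1, Cd163 and Id3, and the standard diet livers alone 1 for Clec4f, Vsig4, Adgre1 and Id3 and 0 for Timd4, Marco, Cd163 and Csf1r. Levels without TMM stayed within 1 SD in each group. Timd4 and Cd163, at 0 to 114 reads, are limited by depth.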

Other observations

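Of 10 markers of lipid-associated macrophages, which gather around fat-laden hepatocytes, Fabp5 was lower with Fc(mML1)B3 under the HFD (log2 FC -0.54) and 3 genes in the standard diet livers, among them Lpl (-0.76), Cd9 (-0.36) and Gpnmb (-0.53), by edgeR's quasi-likelihood test at an adjusted p below 0.05, where 6.68% and 7.55% of all genes were lower. None was higher, and the medians were -0.43 and -0.35. With each diet 6 of the 10 had an unadjusted p below 0.05 in edgeR, where 29.8% and 29.3% of all genes did. Of 12 general macrophage and leukocyte genes, Lcp1 (-0.29), Coro1a (-0.58) and Mpeg1 (-0.36) were lower in the HFD livers. All 12 had a negative log2 FC there (median -0.36) and an unadjusted p below 0.05 in edgeR, where 29.8% of all genes had such a p. None was called in the standard diet livers (2 at an unadjusted p below 0.05, 1 by DESeq2). Of 11 monocyte markers none was called by edgeR with either diet (medians -0.42 and -0.15, 2 at an unadjusted p below 0.05 in each), and 2 were called by DESeq2 under the HFD. Between the diets, 7 lipid-associated, 9 general and 6 monocyte markers were lower under the standard diet in the Fc mice, and 5, 5 and 2 in the Fc(mML1)B3 mice, where 25.2% and 19.1% of all genes were lower.

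Of the remaining lists, 3 of 5 B cell markers were lower with Fc(mML1)B3 in the HFD livers and 0 in the standard diet livers, where 6.68% and 7.55% of all genes were lower. No marker of T and NK cells (7 tested) or dendritic cells (6 tested) was called in either by edgeR, DESeq2 or limma-voom, with 3 T and NK cell markers at an unadjusted p below 0.05 under the HFD. One of 7 hepatocyte markers was higher with each diet, where 8.14% and 8.56% of all genes were higher. Stellate and cholangiocyte markers had 0 calls in the HFD livers and 1 lower each in the standard diet livers, and sinusoidal endothelial markers 0 and 1 higher.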
